A study of Mus musculus with 8 samples.

Results

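CD11b+Ly6G-Ly6Chigh and CD11b+Ly6G-Ly6Clow monocytes (MCs) from the blood of untreated control (CT) mice were compared in 4 of the 8 RNA-Seq libraries of the series, 2 of each subset, over all 16486 genes of the deposited expression matrix. The libraries were those named for control mice. CT mice were wild-type male C57/BL6 mice on normal chow, aged 20 to 22 weeks. Subsets were sorted from blood by flow cytometry, RNA from 5 mice was pooled, and the CT pools were sequenced in duplicate on a NextSeq instrument. The other 4 libraries, 1 of each subset from mice made diabetic with streptozotocin (STZ) and from db/db mice, which lack a working leptin receptor, were sequenced on another instrument (HiSeq) and enter only the last comparison. The diabetic mice were also male, on normal chow and aged 20 to 22 weeks, and the STZ mice were C57/BL6 mice. Because nothing in the labels says that the 2 libraries of a subset came from separate mice, the spread between them may be technical, and the p-values measure only that spread.

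Ly6Chigh MCs are the classical monocytes of the mouse. They leave the bone marrow through the chemokine receptor CCR2, enter inflamed tissue and can become macrophages there. Ly6Clow MCs are the nonclassical monocytes, which patrol the vessel wall, arise largely from Ly6Chigh MCs and depend on the transcription factor NR4A1 for their survival. The sort gate used CD11b, Ly6G and Ly6C, and CD11b is also carried by NK cells and by some B cells.

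All values are log2 expression values, and a log2FC is the mean of Ly6Chigh MCs minus the mean of Ly6Clow MCs. The labels give 40000000 reads for each library, but the values used here are not counts, so the number of reads behind each value is unknown. Whether they were made from gene counts or from length-scaled TPM values is not given, so a level below is the deposited value and may depend on transcript length. The correlation across genes of the 2 libraries was 0.968 in each subset. Their median absolute difference fell from 0.68 in Ly6Chigh and 0.58 in Ly6Clow MCs for genes with a mean log2 value under 1 to 0.043 and 0.051 for genes above 9, so that lowly expressed genes were the least precise. Raised from the log2 scale, the values of a library summed to 1024410 and 1020070 in Ly6Chigh and to 839247 and 838696 in Ly6Clow MCs. In bulk RNA, fewer cells of a type and less RNA per cell cannot be told apart.

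A differentially expressed gene (DEG) had an adjusted p-value under 0.01 by limma with Benjamini-Hochberg adjustment over all genes and an absolute log2FC above 1. By this rule 346 genes were higher in Ly6Chigh MCs, 2.10% of those tested, and 235 were lower, 1.43%. The median absolute log2FC was 1.56 among higher and 3.14 among lower DEGs. Of the higher DEGs 301 had a mean log2 value of at least 5, against 101 of the lower DEGs. At these limits lower DEGs were fewer, larger in fold and more often low in level. Lowly expressed genes were the least precise, and the part of this in the larger folds was not tested. Among DEGs averaging 5 or more, the rise ranked 20 had a log2FC of 2.80 and the fall ranked 20 had -3.72. The same fit gave 1087 higher and 1898 lower genes at an unadjusted p under 0.05 and past 2-fold. Which side held more genes therefore depended on the limit. In 40 of the lower and 2 of the higher DEGs at least 2 libraries held the same lowest value, a floor on which their fold depends. No gene was called in either direction when the variance was not allowed to follow expression, when the replicate number was a block, or when any 1 of the 4 libraries was left out. At an unadjusted p under 0.05 and past 2-fold, those fits gave 1027 to 1098 higher and 1395 to 2090 lower genes. The balance of the calls also moved with scaling: 59.6% of DEGs were higher as deposited, 50% after quantile normalization, 66.3% after median centring and 36.5% with equal linear sums.

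**Figure D1:**
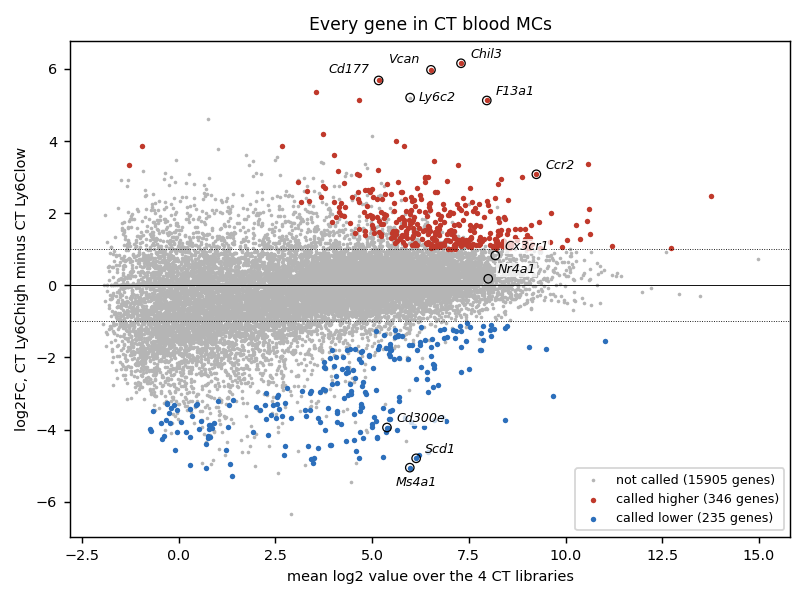
Each point is 1 gene, with its mean log2 value over the 4 CT libraries on the x axis and its log2FC (CT Ly6Chigh minus CT Ly6Clow) on the y axis; dotted lines mark 2-fold, and ringed genes are named. The 346 higher DEGs lie mostly at mean values of 5 and above, while many of the 235 lower DEGs are low in level with folds past 8.

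The markers of the sort were read first. Ly6c2, which encodes the Ly6C antigen, was 8.61 and 8.56 in Ly6Chigh and 4.07 and 2.69 in Ly6Clow MCs. It shares 23.8% of its 31-base sequences with other genes. Both Ly6Chigh libraries were above both Ly6Clow libraries, but the Ly6Clow libraries differed from each other by more than 1 log2 unit, and the gene was not called (log2FC 5.21 ± 0.52 SE, limma adjusted p = 0.0139). Its neighbour Ly6c1, which shares 46.8% of its 31-base sequences with other genes, was 4.11 and 4.02 in Ly6Chigh and 1.71 and 1.43 in Ly6Clow MCs (log2FC 2.49, limma adjusted p = 0.0105). Of 12 classical monocyte markers 9 were DEGs and all of these were higher in Ly6Chigh MCs, with a median log2FC of 3.22 over the list against -0.087 over all genes tested. Ccr2, the receptor for egress from marrow, was 10.81 and 10.76 in Ly6Chigh and 7.67 and 7.74 in Ly6Clow MCs. Plac8, a protein of myeloid cells, was 8.44 and 8.47 in Ly6Chigh and 6.76 and 6.88 in Ly6Clow MCs, and the subsets did not overlap in either gene.

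The nonclassical list moved less evenly. Of 15 markers 4 were DEGs, all lower in Ly6Chigh MCs, and the list median was -0.87. Cd300e, an activating receptor of the CD300 family, was 3.29 and 3.54 in Ly6Chigh and 7.32 and 7.39 in Ly6Clow MCs, a 15.4-fold difference. Cd36, a scavenger receptor for oxidised lipids, was 5.27 and 5.63 in Ly6Chigh and 7.87 and 7.62 in Ly6Clow MCs, with a wider gap between the Ly6Chigh libraries than between the Ly6Clow libraries. Fabp4, a carrier of fatty acids, had a log2FC of -2.90 ± 0.15, and Pparg, a nuclear receptor for lipids, had -1.77 ± 0.14 (SE, n = 2 libraries per subset). The markers most used for the subset were not DEGs. Nr4a1 was 8.11 and 8.08 in Ly6Chigh and 7.80 and 8.02 in Ly6Clow MCs, with a log2FC of 0.18 ± 0.094 (limma adjusted p = 0.253), which turned to -0.10 with equal linear sums and -0.11 after quantile normalization. Cx3cr1, the fractalkine receptor, was 8.59 and 8.61 in Ly6Chigh and 7.76 and 7.78 in Ly6Clow MCs. Its groups did not overlap, but the higher pair was the Ly6Chigh pair, under 2-fold (log2FC 0.83 ± 0.041, limma adjusted p = 0.00541). Spn, which encodes CD43, had a log2FC of -0.71, Treml4 -0.69 and Ace -0.43, all lower in Ly6Chigh MCs by less than 2-fold.

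All 11 pan-monocyte genes were above 0 in log2FC, and 6 were DEGs. Lyz2, the macrophage lysozyme, was 15.00 and 15.02 in Ly6Chigh and 12.55 and 12.52 in Ly6Clow MCs, and Mpeg1, the pore-forming perforin-2, was 11.67 and 11.69 in Ly6Chigh and 9.56 and 9.55 in Ly6Clow MCs. Lyz2 shares 32.8% of its 31-base sequences with other genes. Csf1r, the receptor for the monocyte growth factor CSF1, was 10.41 and 10.65 in Ly6Chigh and 9.70 and 9.75 in Ly6Clow MCs, a difference of 0.80 that was not called. The median over these 11 genes, which are expressed by both subsets, was 1.06, about the 2-fold limit of a call. After quantile normalization and with equal linear sums 3 of the 11 were DEGs, with medians of 0.76 and 0.77.

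Lymphocyte markers stood on the other side of the comparison. Of 20 B cell markers 16 were DEGs, all lower in Ly6Chigh MCs, and the summed linear level of the list was 570 and 576 in Ly6Chigh against 7045 and 7090.5 in Ly6Clow MCs. Cd79a, a signalling chain of the B cell receptor, was 3.90 and 3.83 in Ly6Chigh and 8.56 and 8.59 in Ly6Clow MCs. Ms4a1, which encodes CD20, was 3.21 and 3.69 in Ly6Chigh and 8.50 and 8.50 in Ly6Clow MCs. Ighm, the heavy chain of IgM, was 8.14 and 8.12 in Ly6Chigh and 11.19 and 11.22 in Ly6Clow MCs, so the transcript was also well above the floor in Ly6Chigh MCs. Of 16 NK cell markers 12 were DEGs, again all lower, with sums of 150 and 166 against 1027 and 1032. Gzma, a killer granule protease, was 5.06 and 4.88 in Ly6Chigh and 7.91 and 7.94 in Ly6Clow MCs, and Ncr1, the receptor NKp46, was 3.53 and 3.15 in Ly6Chigh and 6.13 and 6.14 in Ly6Clow MCs. Of 20 T cell markers only Cd2, which NK cells also carry, was a DEG, and the sums were 110 and 113 against 325 and 337. Cd2 itself was 3.19 and 3.95 in Ly6Chigh and 7.33 and 7.25 in Ly6Clow MCs, a large part of the Ly6Clow sums. Of these 20 genes 17 had a log2FC below 0, with a median of -0.85, and 6 were past 2-fold at an unadjusted p under 0.05. Cd3e, a chain of the T cell receptor complex, was one of the 3 above 0, at 2.70 and 2.17 in Ly6Chigh and 2.44 and 1.45 in Ly6Clow MCs. Altogether 29 of the 235 lower DEGs were on these 3 lists, and no higher DEG was. The part of these cells in the other lower DEGs was not tested.

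Markers of the remaining blood cells were read against all genes tested, of which 2.10% were higher and 1.43% lower DEGs. In lists this short, a count of 0 is near those shares. Of the measured members, 0 of 8 dendritic cell, 0 of 7 basophil and mast cell, 0 of 12 platelet and 0 of 8 erythroid markers were DEGs by limma, whereas at an unadjusted p under 0.05 there were 6 of these genes past 2-fold. The erythroid sum was 20507 and 20743 in Ly6Chigh and 24237 and 24278 in Ly6Clow MCs, and the haemoglobin gene Hbb-bs was 13.33 and 13.33 in Ly6Chigh and 13.62 and 13.62 in Ly6Clow MCs, so haemoglobin RNA was present in every library. S100a8 and S100a9, the calprotectin subunits, were on both the neutrophil list and the granule list below, and were low throughout. S100a8 was 1.14 and 1.15 in Ly6Chigh and 1.61 and 2.07 in Ly6Clow MCs, so its higher pair was the Ly6Clow pair. Of 9 measured neutrophil genes only Csf3r, the receptor for G-CSF, which monocytes also express, was a DEG (log2FC 1.90). Of 4 eosinophil markers Il5ra was a DEG, and of 6 plasmacytoid dendritic cell markers Ly6d was, both lower in Ly6Chigh MCs with log2FC of -3.53 and -4.43. Both genes are also known from B lineage cells.

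**Figure D2:**
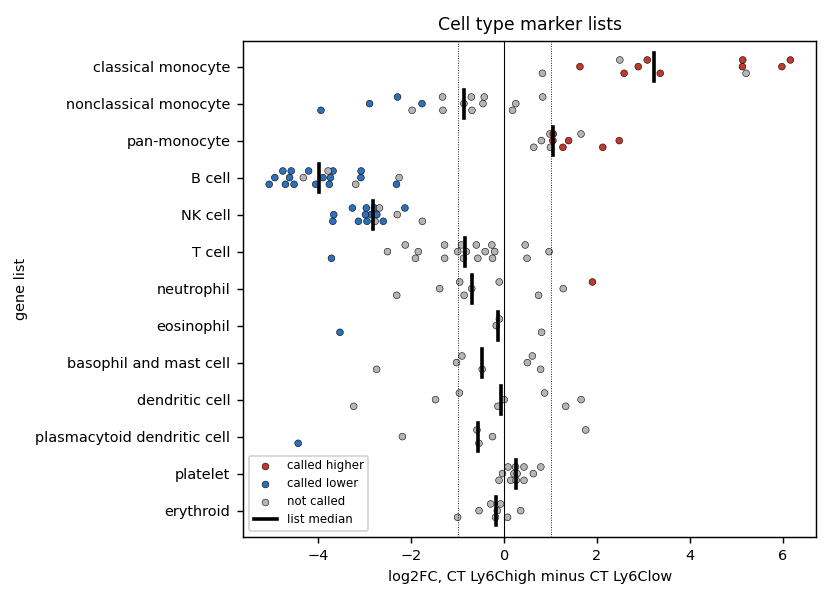
Each point is the log2FC (x axis, CT Ly6Chigh minus CT Ly6Clow) of 1 marker gene, listed by cell type on the y axis, and the black bar is the list median. Classical markers lie to the right with a median of 3.22, and B cell and NK cell markers lie to the left with medians of -3.98 and -2.83.

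Among DEGs whose mean log2 value reached 5, the largest rises in Ly6Chigh MCs were in Chil3, Vcan, Cd177 and F13a1. Chil3, which encodes the chitinase-like protein Ym1, was 10.37 and 10.39 in Ly6Chigh and 4.35 and 4.09 in Ly6Clow MCs, a 71.4-fold difference (log2FC 6.16 ± 0.11, limma adjusted p = 0.00183). It shares 41.5% of its 31-base sequences with other genes, chiefly Chil4. Vcan, the matrix proteoglycan versican, was 9.49 and 9.53 in Ly6Chigh and 3.66 and 3.41 in Ly6Clow MCs, and Fn1, fibronectin, was 12.26 and 12.24 in Ly6Chigh and 8.92 and 8.86 in Ly6Clow MCs. F13a1, the transglutaminase subunit of factor XIII that crosslinks fibrin, was 10.52 and 10.54 in Ly6Chigh and 5.42 and 5.38 in Ly6Clow MCs, a 34.9-fold difference. In each of these 4 genes the gap between subsets was far wider than the gap between the libraries of a subset. Cd177, a surface glycoprotein best known from neutrophils, was 7.98 and 8.04 in Ly6Chigh and 2.92 and 1.74 in Ly6Clow MCs, and its Ly6Clow libraries were the less precise pair. Cd93, a lectin-like receptor, Tgfbi, a matrix protein, and Sgms2, a sphingomyelin synthase, had log2FC of 3.44, 2.96 and 3.99. Mmp8, the neutrophil collagenase, had 5.13 ± 0.12, but its mean log2 value was below 5.

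Of 20 granule and antimicrobial genes 7 were DEGs, all higher in Ly6Chigh MCs. They were Chil3, Cd177, Mmp8, Hp, Lyz1, Lyz2 and Wfdc17. Hp, the haemoglobin scavenger haptoglobin, was 8.37 and 8.38 in Ly6Chigh and 5.63 and 5.35 in Ly6Clow MCs. Prtn3, a serine protease of primary granules, was 2.22 and 1.91 in Ly6Chigh and -0.41 and -1.05 in Ly6Clow MCs, a log2FC of 2.79 that was not called (limma adjusted p = 0.0218).

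Among DEGs of the same level, large falls outside the lymphocyte lists included Scd1, Pik3c2b, Cd55, Cd38, Cd300e and Ets1. Scd1, a fatty acid desaturase, was 3.73 and 3.75 in Ly6Chigh and 8.57 and 8.51 in Ly6Clow MCs (log2FC -4.80 ± 0.076, limma adjusted p = 0.00178). Cd55, which protects cells from complement, was 3.63 and 3.64 in Ly6Chigh and 7.67 and 7.62 in Ly6Clow MCs. Cd38, an ectoenzyme that consumes NAD, was 3.27 and 3.56 in Ly6Chigh and 7.35 and 7.42 in Ly6Clow MCs, and Ets1, a transcription factor of lymphocytes, was 4.71 and 4.76 in Ly6Chigh and 8.46 and 8.49 in Ly6Clow MCs. The 2 libraries of a subset were close in all 4 genes, and the subsets did not overlap. Cd55, Cd38 and Ets1 are also expressed by lymphocytes, and B cell and NK cell sums were higher in the same Ly6Clow libraries, whose part in these differences was not tested. Pik3c2b, a lipid kinase, and Cacna1e, a calcium channel, fell by 4.23 and 3.78 on the log2 scale. The pseudogene Rpl10a-ps1 (log2FC -3.92) shared all of its 31-base sequences with other genes, so its value is uncertain.

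**Figure D3:**
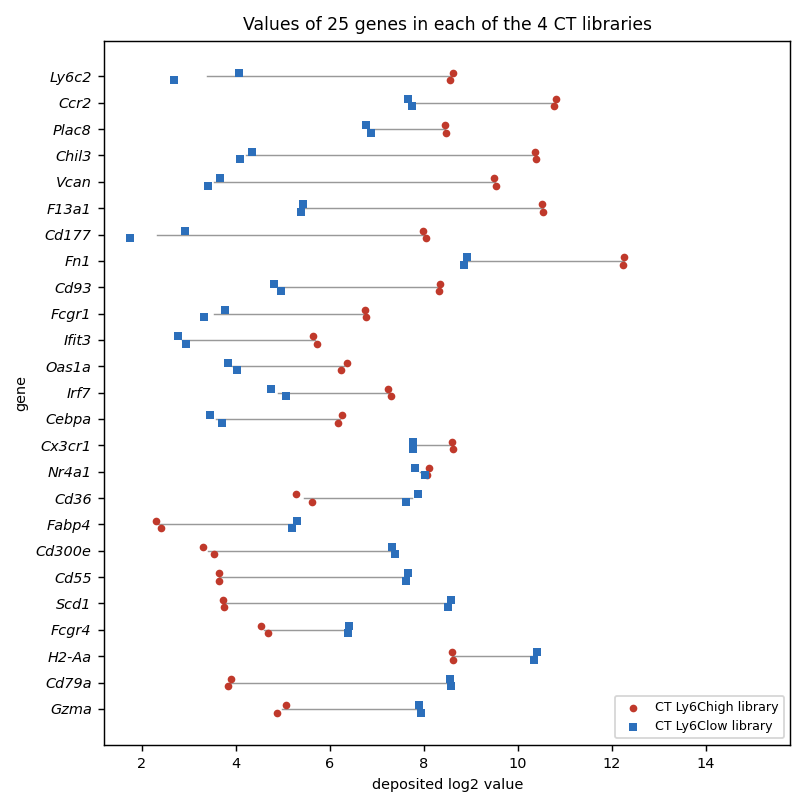
Deposited log2 values (x axis) of 25 genes (y axis) in the 2 CT Ly6Chigh libraries (red circles) and the 2 CT Ly6Clow libraries (blue squares), with a grey line joining the group means. The groups overlap for none of these genes in the 4 libraries shown, but Nr4a1 is separated by less than the gap between its Ly6Clow libraries.

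The interferon-stimulated genes, which encode antiviral effectors switched on by type I interferon, were the functional list with the most DEGs. Of 40 genes 21 were higher in Ly6Chigh MCs, 52.5%, and none was lower. All 40 had a log2FC above 0, with a median of 2.11. The promoters of 3 DEGs of this list, together with that of Irgm1, an interferon-induced GTPase of the neighbouring list, are shown as examples of windows with at least 2 copies of the core of the interferon-stimulated response element, the DNA element bound by the factors of this pathway. Oas1g and Slfn5, also DEGs of the list, held 2 copies each and are not printed. Outside both lists, the higher DEG Cybb held 3 copies and the lower DEG Gzma held 2. Each sequence is the 250 bases before a transcript start that RefSeq gives for the gene in build GRCm38.p6, 5′ to 3′ on the strand of the gene. The window of Ifit3 lies inside the annotated gene, and those of Oas1a and Oas3 overlap the first bases of theirs, since the annotated genes begin further upstream. In each sequence every match to GAAANNGAA or its reverse complement is in capitals.
Ifit3, chr19:34583279-34583528, plus strand: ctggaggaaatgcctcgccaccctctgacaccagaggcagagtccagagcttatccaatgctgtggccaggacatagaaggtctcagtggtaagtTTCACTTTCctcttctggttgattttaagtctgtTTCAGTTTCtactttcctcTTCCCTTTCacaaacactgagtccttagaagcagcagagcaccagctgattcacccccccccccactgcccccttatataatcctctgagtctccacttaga
Oas1a, chr5:120907526-120907775, minus strand: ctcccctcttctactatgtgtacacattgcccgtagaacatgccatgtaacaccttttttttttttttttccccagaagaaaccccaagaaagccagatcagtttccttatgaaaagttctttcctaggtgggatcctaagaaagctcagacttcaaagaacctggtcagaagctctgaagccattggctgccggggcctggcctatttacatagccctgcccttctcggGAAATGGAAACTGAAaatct
Oas3, chr5:120777660-120777909, minus strand: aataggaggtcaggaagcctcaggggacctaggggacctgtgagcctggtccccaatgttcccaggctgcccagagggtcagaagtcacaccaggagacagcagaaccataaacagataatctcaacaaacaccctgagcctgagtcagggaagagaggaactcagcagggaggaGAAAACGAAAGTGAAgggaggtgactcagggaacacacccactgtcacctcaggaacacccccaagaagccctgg
Irgm1, chr11:48871421-48871670, minus strand: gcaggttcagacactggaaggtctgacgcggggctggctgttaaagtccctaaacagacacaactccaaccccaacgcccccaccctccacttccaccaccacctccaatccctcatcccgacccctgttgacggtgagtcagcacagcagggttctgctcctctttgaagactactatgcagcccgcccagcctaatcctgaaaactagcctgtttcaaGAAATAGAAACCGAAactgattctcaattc

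In these windows Ifit3 held 3 matches and Oas1a, Oas3 and Irgm1 held 2 overlapping matches each. Among DEGs of the interferon-stimulated list with a promoter in the RefSeq table, 8 of 15 (53.3%) held a match on either strand, against 931 of 11654 tested genes (7.99%) and 2211 of 27025 genes of the table (8.18%). Among all higher DEGs the share was 16.4%, and among higher DEGs outside the list it was 14.2%. Among lower DEGs it was 10.2%. A match is a description of the letters and not a bound site. Other motifs were searched in the same windows. The C/EBP letters TTGCNNAA stood in 13.1% of higher and 12.2% of lower DEGs, against 9.66% of tested genes. The PU.1 letters GAGGAAGT stood in 5.09% of higher and 7.48% of lower DEGs, against 2.98%. The NR4A letters AAAGGTCA stood in 0.727% and 1.36%, against 1.28%.

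Ifit3, an antiviral partner of Ifit1, was 5.64 and 5.72 in Ly6Chigh and 2.77 and 2.93 in Ly6Clow MCs (log2FC 2.83 ± 0.14, limma adjusted p = 0.00541). It shares 61.8% of its 31-base sequences with other genes, chiefly its copy Ifit3b. Oas3, a sensor of double-stranded RNA, was 7.58 and 7.61 in Ly6Chigh and 5.37 and 5.31 in Ly6Clow MCs, and Oas1a of the same family was 6.37 and 6.24 in Ly6Chigh and 3.84 and 4.01 in Ly6Clow MCs, with 68.8% of its sequences shared, chiefly with Oas1g. Mx1, of the family of antiviral GTPases, is annotated as a transcribed pseudogene in this genome, and its transcript was 6.87 and 7.22 in Ly6Chigh and 4.62 and 4.69 in Ly6Clow MCs. In each of these genes both Ly6Chigh libraries were above both Ly6Clow libraries by more than 2 log2 units. Irf7, the factor that amplifies type I interferon, was 7.23 and 7.30 in Ly6Chigh and 4.74 and 5.06 in Ly6Clow MCs, and Slfn5 of the Schlafen family was 9.66 and 9.62 in Ly6Chigh and 6.92 and 6.77 in Ly6Clow MCs. Ifitm3, which blocks viral entry, was 10.64 and 10.60 in Ly6Chigh and 8.62 and 8.63 in Ly6Clow MCs. Parp14, an ADP-ribosyltransferase, was among the smaller rises, with a log2FC of 1.28 ± 0.063. Isg15 (2.13), Ifit1 (2.31) and Cxcl10 (3.44) had differences of similar size but were not called. Cxcl10 was the least precise of them, at 3.99 and 3.29 in Ly6Chigh and 1.60 and -1.22 in Ly6Clow MCs.

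Of 15 GTPases induced by interferon-gamma only Irgm1 was a DEG, at 6.33 and 6.33 in Ly6Chigh and 4.81 and 5.02 in Ly6Clow MCs, and the list median was 0.57. This single call was 6.67% of the list, against 2.10% higher DEGs over all genes tested. Gbp2, a guanylate-binding protein, had a log2FC of 0.77, while Gbp4 had -1.60 (limma adjusted p = 0.0264), so the members did not share a direction. The receptor chains Ifnar2 and Ifngr2 were both DEGs, with log2FC of 1.14 and 1.14. Ifnar1 was 7.32 and 7.63 in Ly6Chigh and 7.04 and 6.92 in Ly6Clow MCs, a log2FC of 0.50 that was not called.

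**Figure D4:**
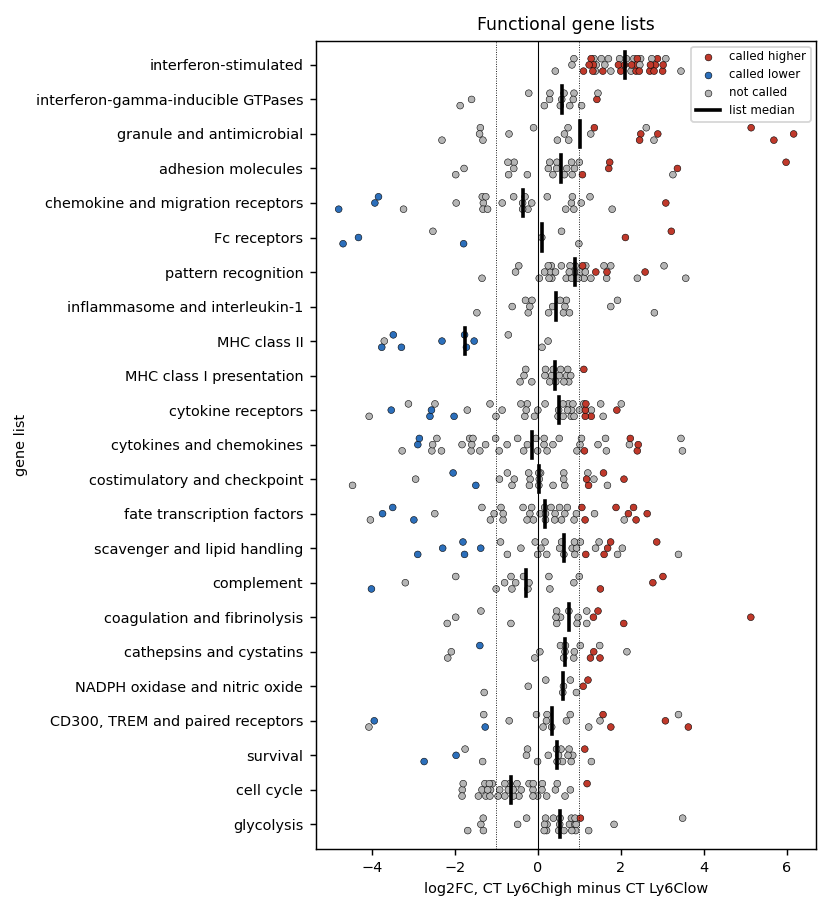
Each point is the log2FC (x axis, CT Ly6Chigh minus CT Ly6Clow) of 1 gene of a functional list (y axis), coloured by its call, and the black bar is the list median. Interferon-stimulated genes all lie to the right of 0 with a median of 2.11, and MHC class II genes have a median of -1.77.

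Receptors for migration followed different directions. Of 26 chemokine and migration receptors only Ccr2 was higher, and Cxcr5, Ccr6 and S1pr1 were lower. These calls were 3.85% and 11.5% of the list, against 2.10% higher and 1.43% lower of all genes tested. The share of higher calls was thus near that of all genes. Cxcr5, the receptor that guides B cells to follicles, was 2.13 and 2.40 in Ly6Chigh and 7.15 and 6.98 in Ly6Clow MCs, and S1pr1, the receptor for egress of lymphocytes, was 3.04 and 3.11 in Ly6Chigh and 6.88 and 6.95 in Ly6Clow MCs. B cell and NK cell sums were higher in the same Ly6Clow libraries, and their part in the lower receptors was not tested. S1pr5, a receptor of patrolling monocytes and NK cells, was 5.83 and 5.51 in Ly6Chigh and 6.90 and 6.87 in Ly6Clow MCs, a log2FC of -1.21 that was not called. Of 24 adhesion genes 5 were DEGs, all higher: Vcan, Fn1, Itga5, Sdc3 and Cd44. Cd44, the hyaluronan receptor, was 10.45 and 10.45 in Ly6Chigh and 9.37 and 9.38 in Ly6Clow MCs, and Itga5, the integrin chain that binds fibronectin, was 6.67 and 6.73 in Ly6Chigh and 5.11 and 4.84 in Ly6Clow MCs. Itgam, which encodes the sort marker CD11b, was 10.60 and 10.65 in Ly6Chigh and 9.62 and 9.64 in Ly6Clow MCs, with a log2FC just under the limit, and 68.3% of its 31-base sequences are shared with other genes. Itgax, which encodes CD11c, was 5.33 and 4.52 in Ly6Chigh and 6.97 and 6.84 in Ly6Clow MCs, a log2FC of -1.98 ± 0.31 in which the Ly6Chigh libraries lay far apart (limma adjusted p = 0.0312).

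Fc receptors split by type. Fcgr1, the high-affinity receptor for IgG, was 6.74 and 6.76 in Ly6Chigh and 3.76 and 3.32 in Ly6Clow MCs, and Fcgr3 was 7.94 and 7.89 in Ly6Chigh and 5.81 and 5.80 in Ly6Clow MCs. Fcgr4 was the reverse, at 4.53 and 4.68 in Ly6Chigh and 6.40 and 6.38 in Ly6Clow MCs (log2FC -1.79 ± 0.10, limma adjusted p = 0.00637). The inhibitory receptor Fcgr2b had a log2FC of 0.57, under 2-fold. Of 9 genes 2 were higher and 3 lower, and Fcmr and Fcrl5, the other lower members, are B cell genes, with log2FC of -4.32 and -4.69.

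Of 34 pattern recognition genes 4 were DEGs and all were higher in Ly6Chigh MCs. Clec7a, the beta-glucan receptor dectin-1, was 7.97 and 7.98 in Ly6Chigh and 5.55 and 5.25 in Ly6Clow MCs, and Clec12a, an inhibitory lectin for uric acid crystals, was 8.33 and 8.38 in Ly6Chigh and 6.64 and 6.73 in Ly6Clow MCs. Myd88, the adaptor of most Toll-like receptors, and Clec4a3 had log2FC of 1.39 and 1.08. Of 12 Toll-like receptors none was a DEG by limma, and 6 were past 2-fold at an unadjusted p under 0.05. In lists this short an absence of calls is near the shares of all genes tested, 2.10% higher and 1.43% lower. Tlr7 had 1.01 ± 0.16, Tlr8 1.11 ± 0.11 and Tlr13 1.14 ± 0.13. Tlr4 was 4.96 and 5.58 in Ly6Chigh and 5.27 and 4.66 in Ly6Clow MCs, so its groups overlapped. Of 16 inflammasome and interleukin-1 genes none was a DEG by limma, although 3 were past 2-fold at an unadjusted p under 0.05. Nlrp3, the inflammasome sensor, had a log2FC of 1.75 ± 0.31, and Il1b was 4.91 and 5.22 in Ly6Chigh and 5.88 and 5.50 in Ly6Clow MCs.

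MHC class II genes were lower in Ly6Chigh MCs. Of 11 genes 7 were DEGs, all in that direction, with a median log2FC of -1.77. H2-Aa, an alpha chain, was 8.60 and 8.61 in Ly6Chigh and 10.40 and 10.34 in Ly6Clow MCs, and Cd74, the invariant chain, was 10.24 and 10.26 in Ly6Chigh and 11.78 and 11.79 in Ly6Clow MCs. The largest falls were in H2-Ob (-3.76), H2-DMb2 (-3.48) and H2-Oa (-3.29), of which H2-O is known as the B cell regulator of peptide loading. H2-DMb2 shares 36.6% of its 31-base sequences with other genes. H2-DMa was 7.72 and 7.70 in Ly6Chigh and 7.61 and 7.61 in Ly6Clow MCs, a log2FC of 0.098 that was not called and turned negative with equal linear sums and after quantile normalization. The B cell sum was also higher in both Ly6Clow libraries, and its part in the MHC class II difference was not tested. Of 18 MHC class I genes only Tap1, the peptide transporter, was a DEG, at 7.22 and 7.23 in Ly6Chigh and 6.17 and 6.07 in Ly6Clow MCs. This single call was 5.56% of the list, against 2.10% higher DEGs over all genes tested. B2m, the light chain, had a log2FC of 0.33 that turned to -0.020 after quantile normalization, and H2-K1 had -0.29.

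Costimulatory and checkpoint genes held 4 higher and 2 lower DEGs of 26. Cd274, which encodes PD-L1, was 4.72 and 5.10 in Ly6Chigh and 6.92 and 6.98 in Ly6Clow MCs (log2FC -2.04 ± 0.16, limma adjusted p = 0.00953). Btla, an inhibitory receptor of lymphocytes, was 5.80 and 5.80 in Ly6Chigh and 7.31 and 7.28 in Ly6Clow MCs. Sirpa, the receptor for the signal of CD47, was 9.60 and 9.51 in Ly6Chigh and 8.31 and 8.46 in Ly6Clow MCs. Lgals9, galectin-9, Sema4a, a semaphorin, and Lilrb4a, an inhibitory receptor with 56.1% shared sequence, had log2FC of 1.58, 1.22 and 2.07. Vsir, which encodes VISTA, had 1.67 but missed the limit (limma adjusted p = 0.0112).

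Among 40 cytokines and chemokines 4 were higher and 2 lower. Ccl6 and Ccl9, chemokines of myeloid cells, were both higher: Ccl9 was 9.39 and 9.38 in Ly6Chigh and 6.89 and 7.06 in Ly6Clow MCs, and Ccl6 was 9.11 and 9.12 in Ly6Chigh and 6.96 and 6.81 in Ly6Clow MCs. Tgfb1, the main transforming growth factor, had a log2FC of 1.12, and Tnfsf13, the survival factor APRIL, had 2.39 with 58.4% of its sequences shared. Ccl5, a chemokine of NK and T cells, was 3.66 and 3.63 in Ly6Chigh and 6.51 and 6.57 in Ly6Clow MCs, and Ltb, lymphotoxin beta, had -2.86. Tnf was 3.92 and 3.84 in Ly6Chigh and 4.11 and 4.16 in Ly6Clow MCs, so its difference of -0.25 was small in these libraries. Of 39 cytokine receptors 5 were higher and 4 lower. The higher members beside Ifnar2, Ifngr2 and Csf3r were Il6ra, the receptor for interleukin-6, at 9.61 and 9.57 in Ly6Chigh and 8.27 and 8.34 in Ly6Clow MCs, and Tnfrsf1a, the death-domain receptor for TNF, with 1.15. The lower members were Il5ra, Il2rb, Il18r1 and Il18rap, of which the last 3 are also NK cell genes, with log2FC of -2.60, -2.56 and -2.02.

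Of 38 transcription factors tied to monocyte fate 7 were higher and 3 lower in Ly6Chigh MCs. Cebpa, a driver of the myeloid lineage, was 6.25 and 6.17 in Ly6Chigh and 3.45 and 3.71 in Ly6Clow MCs (log2FC 2.63 ± 0.14, limma adjusted p = 0.00591). Cebpd was 5.34 and 5.42 in Ly6Chigh and 3.37 and 3.04 in Ly6Clow MCs, whereas Cebpb, which Ly6Clow MCs are known to need, was 5.41 and 5.42 in Ly6Chigh and 4.71 and 4.82 in Ly6Clow MCs and was not called. Maf, a factor of macrophage maturation, had a log2FC of 2.30 ± 0.11. Spi1, which encodes PU.1, was 9.10 and 9.09 in Ly6Chigh and 8.05 and 8.03 in Ly6Clow MCs, just past 2-fold, and Rara, a retinoic acid receptor, had 1.14. Irf7, described above, was also among the higher factors. The lower factors beside Ets1 were Myc (-3.50) and Tbx21 (-2.99), the latter the T-bet of NK cells. Klf2 had 0.16, which turned negative under the same scalings as Nr4a1, Klf4 0.52 and Irf8 0.41, all under 2-fold. Pou2f2 was 8.31 and 8.51 in Ly6Chigh and 8.84 and 8.69 in Ly6Clow MCs.

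Among 31 genes of lipid handling 5 were called higher and 5 lower, while 21 had a log2FC above 0 and 10 below, with a median of 0.62. Msr1, the scavenger receptor for modified LDL, was 7.80 and 7.79 in Ly6Chigh and 5.01 and 4.86 in Ly6Clow MCs. Soat1, which makes cholesterol esters, was 9.16 and 9.16 in Ly6Chigh and 7.41 and 7.41 in Ly6Clow MCs, and Lrp1, an endocytic receptor, was 11.14 and 11.07 in Ly6Chigh and 9.36 and 9.49 in Ly6Clow MCs. The lysosomal Scarb2 had a log2FC of 1.15. Abca1, which exports cholesterol, was the reverse, at 5.10 and 5.43 in Ly6Chigh and 7.03 and 7.11 in Ly6Clow MCs. Mylip, a ubiquitin ligase of lipoprotein uptake, had a log2FC of -1.38, and the other lower members were Cd36, Fabp4 and Pparg. Uptake receptors therefore stood on both sides, with Msr1 and Lrp1 higher and Cd36 lower. Trem2, a lipid receptor of macrophages, was 5.52 and 5.32 in Ly6Chigh and 1.25 and 2.82 in Ly6Clow MCs, a log2FC of 3.38 with an SE of 0.61 that was not called.

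Called complement and coagulation genes were mostly higher in Ly6Chigh MCs, although most complement genes had a log2FC below 0. C3, the central complement protein, was 10.37 and 10.37 in Ly6Chigh and 7.24 and 7.48 in Ly6Clow MCs (log2FC 3.01 ± 0.097, limma adjusted p = 0.00376). Cfb, the protease of the alternative pathway, had a log2FC of 2.77 with 75.5% of its sequences shared. Of 18 complement genes 3 were called higher and only Cd55 lower, while 7 had a log2FC above 0 and 11 below. The median of the list was -0.29. C1qb, a chain of the first complement component, was 1.80 and 2.39 in Ly6Chigh and 2.81 and 2.68 in Ly6Clow MCs and was not called. Of 17 coagulation genes 4 were DEGs, all higher: F13a1, F10, Anxa2 and Pros1. F10, the factor X zymogen, was 7.21 and 7.27 in Ly6Chigh and 5.34 and 5.01 in Ly6Clow MCs, and Anxa2, a surface receptor for plasminogen, was 8.78 and 8.78 in Ly6Chigh and 7.33 and 7.34 in Ly6Clow MCs.

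CD300, TREM and paired receptors held 4 higher and 2 lower DEGs of 19. Siglec1, the sialic acid receptor CD169, was 5.76 and 5.87 in Ly6Chigh and 2.33 and 2.05 in Ly6Clow MCs. Cd300lg was 6.18 and 6.21 in Ly6Chigh and 3.34 and 2.92 in Ly6Clow MCs, and the inhibitory receptor Pirb was 9.63 and 9.59 in Ly6Chigh and 8.05 and 8.04 in Ly6Clow MCs. Pirb shares 44.1% of its 31-base sequences with other genes. Pira2, its activating partner, had 1.76, but 96.7% of its sequences are shared. The lower members were Cd300e and Cd300ld (-1.27). Among 17 cathepsin and cystatin genes Ctsc, Ctsa and Ctss were higher, with log2FC of 1.49, 1.34 and 1.26, and Ctso was lower (-1.40). Of 9 NADPH oxidase and nitric oxide genes 2 were higher. Among these was Cybb, the catalytic subunit of the phagocyte oxidase, at 11.73 and 11.77 in Ly6Chigh and 10.64 and 10.69 in Ly6Clow MCs. Of 14 genes of eicosanoid synthesis Alox5ap, which presents arachidonic acid to 5-lipoxygenase, was 9.73 and 9.65 in Ly6Chigh and 7.36 and 7.31 in Ly6Clow MCs, and Pla2g7 had 1.24, while Alox5 itself was 4.33 and 4.00 in Ly6Chigh and 5.20 and 5.16 in Ly6Clow MCs and was not called.

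Housekeeping and growth genes were read against all genes tested, of which 2.10% were higher and 1.43% lower DEGs. Higher DEGs made up 3.70% of the glycolysis list and 2.78% of the cell cycle list, near the share of all genes. None of 86 cytosolic ribosomal protein genes was a DEG by limma, with a median of -0.15, and none of 77 respiratory chain genes was, with a median of 0.56 and 72 above 0. At an unadjusted p under 0.05, 1 ribosomal and 0 respiratory chain genes were past 2-fold. Of 27 glycolytic genes only Pkm, pyruvate kinase, was a DEG, at 9.09 and 9.05 in Ly6Chigh and 8.01 and 8.08 in Ly6Clow MCs. Of 36 cell cycle genes only E2f2 was, at 7.89 and 7.76 in Ly6Chigh and 6.66 and 6.63 in Ly6Clow MCs, and the list median was -0.64. The proliferation marker Mki67 was 6.06 and 5.67 in Ly6Chigh and 6.38 and 6.37 in Ly6Clow MCs. None of 11 cyclins and cell cycle inhibitors was a DEG by limma, with 4 at an unadjusted p under 0.05 past 2-fold. Of 19 survival genes Bcl2, which blocks apoptosis, was 5.44 and 5.62 in Ly6Chigh and 7.48 and 7.52 in Ly6Clow MCs, and Bcl2a1b, with 88.8% shared sequence, had -2.74. The proapoptotic Bmf was the only higher member, at 1.13. Bcl2 is expressed by lymphocytes too, and the part of the higher lymphocyte sums in its difference was not tested.

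Some DEGs were neighbours in the genome, in runs of at least 3 genes in gene order. Ifi214, Ifi213 and Ifi209, nucleic acid sensors of the interferon-induced Ifi200 family, lay at chr1:173521311-173647928 (GRCm38.p6) and were all higher in Ly6Chigh MCs. Slfn2, Slfn1 and Slfn4 lay at chr11:83065112-83190216 and were also all higher, with log2FC of 1.17, 3.01 and 2.69. The lower runs were H2-Ob, H2-Ab1, H2-Aa and H2-Eb1 at chr17:34238905-34316674 and 3 runs of immunoglobulin genes. The latter held Ighg3, Ighd and Ighm on chromosome 12, Iglc2, Iglv3 and Iglv2 on chromosome 16, and Igkv6-17, Igkv8-16 and Igkv6-15 on chromosome 6. Both Ly6Chigh libraries held the same floor value for Iglv3, Iglv2, Igkv6-17 and Igkv8-16, and for Ccr6 above. These families have close copies, so reads could be divided between neighbours.

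The same subtraction was made in the diabetic mice, each with 1 library of either subset and no library shared with CT, so these values have no replicate check. Of the 346 higher DEGs of CT MCs, 341 were above 0 in STZ and 336 in db/db mice, and 293 and 252 were past 2-fold. Over all genes 11.0% and 11.3% were past 2-fold in that direction. Of the 235 lower DEGs, 223 were past 2-fold lower in STZ and 210 in db/db mice, against 16.8% and 17.8% of all genes. The lists differed in how closely their values matched. The median of the classical list was 3.22 in CT, 4.39 in STZ and 4.55 in db/db mice, and that of the B cell list was -3.98, -3.78 and -5.19. Interferon-stimulated genes had a median of 2.11 in CT and 2.18 in STZ but 0.41 in db/db mice. Oas3 was an example, with 2.25 in CT, 2.25 in STZ and 0.63 in db/db mice. The Ly6c2 difference was 5.53 in STZ and 5.05 in db/db mice, and that of Nr4a1 was -0.88 and -1.25. The libraries of both diabetic models were run on another sequencer than the CT libraries, so for CT against diabetic mice the mouse group and the sequencer cannot be told apart. STZ and db/db libraries shared a sequencer, but with 1 library per subset the difference between them was not tested.

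**Figure D5:**
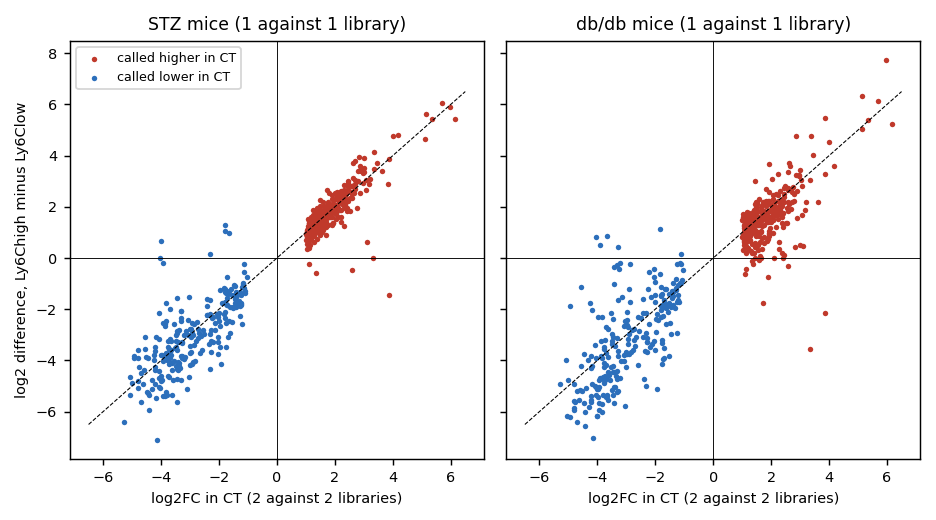
The log2FC of each DEG in CT mice (x axis, 2 against 2 libraries) is plotted against the log2 difference of Ly6Chigh minus Ly6Clow (y axis) in STZ mice (left) and db/db mice (right), each from 1 library per subset; the dashed line marks equal values. Most red points lie above 0 and most blue points below 0 in both panels, with 336 of 346 and 229 of 235 DEGs doing so in db/db mice.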

How the data were processed

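RNA-Seq values of 4 libraries of sorted blood MCs, 2 CT Ly6Chigh and 2 CT Ly6Clow, were taken from 1 matrix of log2 values that the authors deposited for 16486 genes. The authors quantified reads by pseudoalignment with Kallisto 0.45 and summarised them to genes with tximport 1.12.3 under R version 3.6.1, and the labels give build mm10. Per the labels, each library had 40000000 reads, and tximport gave gene counts and TPM. Which of these the log2 values were made from, and how they were scaled between libraries or filtered, is not given in the sources used here. The values hold no counts, so no counting error can be given. Groups and replicate numbers were read from library names. Symbols that a spreadsheet turned into dates (21) were counted but not named.

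limma 3.58.1 in R 4.3.3 was fitted to the 4 libraries without further normalization or covariates, using lmFit followed by eBayes with its trend option, and Benjamini-Hochberg adjustment covered all genes. DEGs had an adjusted p under 0.01 and an absolute log2FC above 1. The fit was first tested on simulated data. Genes named are members of marker and functional lists, the 20 largest rises and 20 largest falls among DEGs whose mean log2 value reached 5, and runs of at least 3 neighbouring DEGs. A few genes covered by this choice are not reported by name, although the list counts include them. The lists, like the choice of comparison, were made with earlier results of these data known. Positions and promoters came from RefSeq, GRCm38.p6, in which 15882 symbols had a position. Shared 31-base sequences were counted over the reference transcripts. Tables and plots used Python 3.11.15, numpy 2.4.6, pandas 2.3.3 and matplotlib 3.10.9. Alternatives were a filter at a mean log2 value of 1, a pseudocount of 1, quantile normalization, median centring, equal linear sums, eBayes without trend, a limit of 0.05 on the adjusted p, a block for the replicate number, and leaving out each library.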

Additional observations from a re-analysis of the deposited data

How the results depend on the processing

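With 2 libraries per subset from pooled RNA, limma's calls depended on the trend of variance on expression. The 346 higher and 235 lower genes became 633 and 481 with a filter at a mean log2 value of 1, 656 higher with median centring (shift of the median of all genes 0.13), 207 and 360 with equal linear sums (shift -0.29), and 834 and 1102 at an adjusted p under 0.05. Without the trend the counts were 0 and 0, with 1075 and 1863 at an unadjusted p under 0.05 past 2-fold and a smallest adjusted p of 0.0167. Leaving out each library gave 0 to 0 calls in each direction, with 1027 to 1098 higher and 1395 to 2090 lower genes at an unadjusted p under 0.05, and the lone library was then assumed to vary like the other pair.

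With the replicate number as a block the counts were 0 and 0, with 1069 and 1816 at an unadjusted p under 0.05. Deviations of same-numbered libraries correlated at 0.0089, and nothing in the labels pairs libraries by number. Both subsets came from pooled mice of the same group, so they may share animals. If the duplicates are technical, this correlation could not show a pairing.

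No called gene changed sign under any alternative, but higher calls just past 2-fold depended on the scaling. Of the 346 higher DEGs 249 stayed called after quantile normalization and 206 with equal linear sums. In these settings 97 and 105 of all DEGs fell under 2-fold. Quantile normalization (352 and 352 calls, shift 0.10) turned the uncalled B2m to -0.020, H2-DMa to -0.18, Klf2 to -0.094 and Nr4a1 to -0.11. Equal linear sums turned H2-DMa to -0.19, Klf2 to -0.12 and Nr4a1 to -0.10. Leaving out a library, Tlr4 ranged from -0.0098 to 0.61 and was below 0 without Ly6Chigh or Ly6Clow replicate 2, and the uncalled Cd3e ranged from -0.0032 to 0.99. No list median printed in the report's text changed sign under any alternative. Of the other list medians, most of them drawn as bars, those of the eosinophil, basophil and mast cell, dendritic cell, platelet, fate transcription factor, Fc receptor, costimulatory, cytokine, cyclin and eicosanoid lists changed sign under at least 1 alternative, and as deposited they lay between -0.47 and 0.25. The cause of these changes was not tested. Depth limits could not be read from log2 values.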

Other observations

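Further gene groups were formed after their values had been seen, and are therefore given as counts without a test. Most were grouped by symbol, but the lysosomal genes were chosen by name. Some members, among them Ifi204, Ifi209, Ifi213, Anxa2, Abca1, Ms4a1, Ighm, Ighd and Igkc, were also on the lists above. Their calls are therefore counted again here. Of 178 immunoglobulin gene segments 32 were called lower in Ly6Chigh MCs and 0 higher, with a median log2FC of -2.28, and of 8 Gimap genes, GTPases of lymphocytes, 4 were called lower (Gimap3, Gimap6, Gimap7 and Gimap8) with a median of -3.46. Annexins, which bind membranes in the presence of calcium, held 5 higher calls of 10: Anxa1, Anxa2, Anxa3, Anxa4 and Anxa5. The Ms4a family was divided, with Ms4a4c, Ms4a6b, Ms4a6c and Ms4a6d higher and the B cell gene Ms4a1 lower, of 14 measured. Of 24 genes of lysosomal hydrolases, membrane proteins and proton pumps 9 were higher, among them Lamp1, Lamp2, Npc2 and Psap, and 23 had a log2FC above 0. Of 11 genes of the interferon-induced Ifi200 family 6 were higher, and all 11 were above 0 under the deposited scaling, with a range from 0.24 to 3.86. Among 12 genes of the Abca family, lipid transporters, Abca6, Abca7 and Abca9 were higher and Abca1 was lower. Background shares of calls are those given for all genes, 2.10% higher and 1.43% lower.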
